A study of Mus musculus with 2 samples.

Results

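The clustered protocadherins are cell-surface adhesion proteins of the cadherin superfamily, encoded side by side on mouse chromosome 18 in an alpha, a beta and a gamma cluster. Every protein-coding GENCODE M21 gene on that chromosome whose symbol begins with Pcdha, Pcdhb or Pcdhg was taken as a member, which gave 57 of the 21755 such genes that M21 places on an autosome or the X. They comprise 12 alternate alpha genes, 22 beta genes, 12 gamma A genes, 6 gamma B genes and 5 C-type genes (Pcdhac1, Pcdhac2, Pcdhgc3, Pcdhgc4 and Pcdhgc5). In neurons each cell uses its own small selection of the alternate genes, and the resulting mixture of proteins on the surface lets a neuron tell its own branches from those of its neighbours. Every alpha and gamma gene has a variable first exon with a promoter of its own, which is spliced to constant exons shared by the whole cluster, whereas a beta gene consists of a single coding exon. Choice among alternate promoters is known to involve the DNA-binding protein CTCF, the ring complex cohesin and distant enhancers, while C-type promoters are used more uniformly.

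The assay was DNase-seq, in which the nuclease DNase I cuts DNA that nucleosomes leave exposed. The material was healthy whole mouse embryo of 11 days, strain B6NCrl, with male and female embryos pooled. There was 1 condition with 2 biological replicates, which have separate biosample entries and a common donor entry, so there is no contrast between conditions. Each replicate has a list of peaks, 204697 in replicate 1 and 231103 in replicate 2, and a list of broader hotspots, 179603 and 197152. Each peak is 150 bp wide, apart from a few, and carries the authors' own score from 1 to 150, whose zero point and construction are not given, so scores only rank peaks within a list (median of all peaks 45 in replicate 1 and 50 in replicate 2). A score percentile below is the percentile among all peaks of the same replicate. Read counts are not given and the depth is unknown. With 1 group and 2 libraries no test between conditions was possible, and both replicates' values are given in place of an SD. Promoters of neural progenitor markers (3 of 3) and young neuron markers (4 of 4) had peaks in both replicates. So did those of muscle markers (2 of 2), red cell markers (2 of 2) and the liver marker Afp. Those of the mature olfactory neuron genes Omp and Cnga2 had none. Over all protein-coding genes the share with peaks in both was 70.3%, so these calls alone do not show which cell types were present. In a whole embryo, fewer cells of a type and weaker accessibility per cell cannot be told apart.

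A gene was counted as having a promoter peak where the interval of a peak reached to within 500 bp of an annotated transcription start site (TSS). By this measure 33 of the 57 clustered genes had a promoter peak in both replicates (57.9%), against 70.3% of all protein-coding genes. Another 12 clustered genes (21.1%) had a peak in exactly 1 replicate, against 2.67% of all genes, and the remaining 12 had none in either, a state shared by 27.0% of all genes. Members and all genes were thus furthest apart, as a ratio of shares, in promoters seen in 1 replicate. Of the 12 discordant genes, 11 had their peak in replicate 2, the longer list, and Pcdhb10 had its peak in replicate 1. Of the 581 discordant genes among all protein-coding genes, 391 had their peak in replicate 2. In replicate 2 alone 44 of 57 members had a promoter peak (77.2%, against 72.1% of all genes), and in replicate 1 alone 34 did (59.6%, against 71.2%), so whether members lie above or below the other genes depends on the replicate. All annotated TSSs of a gene were searched, so genes with more TSSs had more sequence searched. With the 5′-most TSS only, a peak in both replicates was present at 57.9% of members and 65.2% of all genes.

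**Figure D1:**
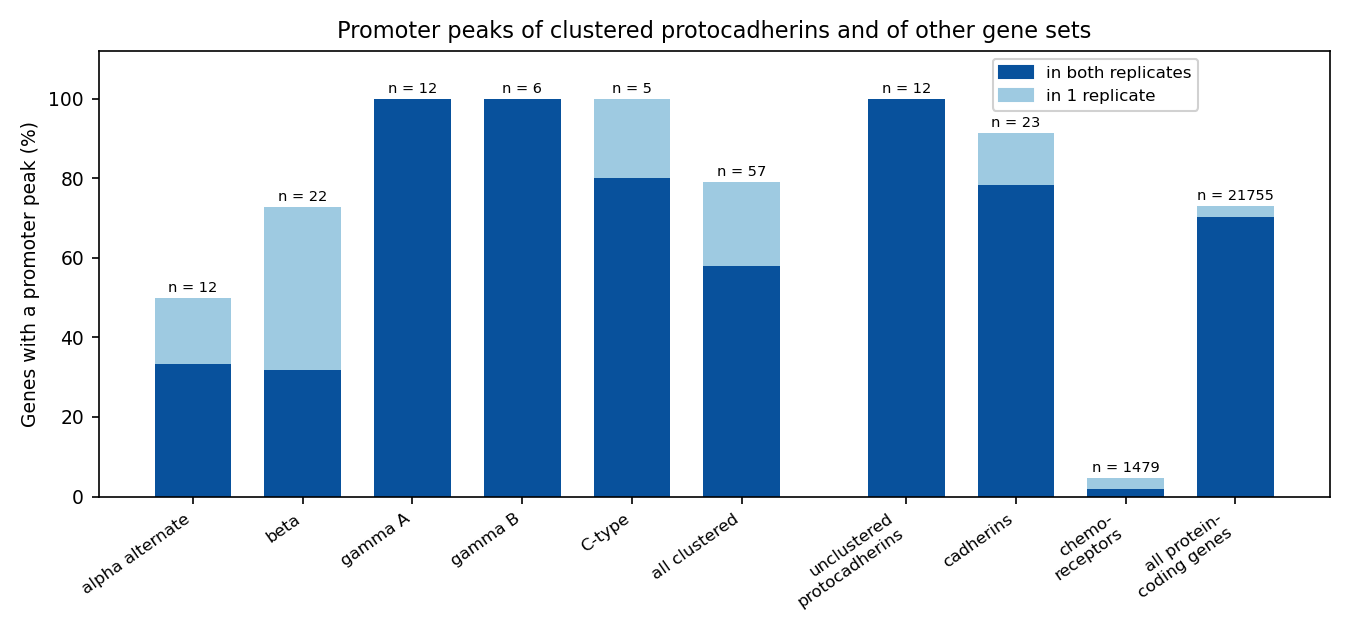
Percentage of genes with a peak within 500 bp of a TSS, in both replicates (dark) or in 1 replicate (light), with the number of genes above each bar. All 18 gamma A and gamma B genes had a peak in both replicates, while the alternate alpha and the beta genes stood at 33.3% and 31.8%, below the 70.3% of all protein-coding genes.

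The groups of the family differed widely. A peak in both replicates was present at 12 of 12 gamma A promoters, 6 of 6 gamma B promoters and 4 of 5 C-type promoters, but at 4 of 12 alternate alpha promoters and 7 of 22 beta promoters. Discordant promoters were most frequent in the beta cluster, with 9 of 22, against 2 of 12 among alternate alpha genes and 1 of 5 among C-type genes. Without replicate 1 the beta count is 15 of 22 and the alternate alpha count 6 of 12; without replicate 2 they are 8 and 4. Hotspots gave nearly the same picture: 34 members had a promoter hotspot in both replicates (59.6%), against 70.6% of all genes, and the extra member was Pcdha4.

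The best-ranked promoters of the family were those of Pcdhgc3 and Pcdhgc4, both C-type genes. Pcdhgc3, the only C-type isoform known to inhibit canonical Wnt signalling through Axin1, scored 139 in replicate 1 and 144 in replicate 2, the 99.0 and 99.6 percentiles of all peaks. Pcdhgc4, the isoform known to be needed for the survival of many neurons, scored 116 and 119. On the alpha side Pcdhac1 scored 75 and 97, and Pcdhac2, the isoform used by serotonergic neurons to space their axons, scored 91 and 90. Among the best promoter scores of all genes with a peak, Pcdhgc3 was at the 86.6 and 94.2 percentiles. The others were lower there, with 38.3 and 33.9 at Pcdhgc4, 14.4 and 19.6 at Pcdhac1, and 20.9 and 16.7 at Pcdhac2. These 4 promoters ranked above every alternate promoter of their own cluster in both replicates, although the alternate Pcdhga12 (93 and 104) ranked above both alpha C-type genes. They also lay in hotspots at the ceiling of the deposited significance (−log10 q of 100) in both replicates, a state shared by 65.3% of all genes. Those hotspots were 1231 and 1184 bp wide at Pcdhac1, 1629 and 1885 bp at Pcdhac2, 1474 and 1740 bp at Pcdhgc3, and 671 and 750 bp at Pcdhgc4. In replicate 2 the widest hotspots of the alternate Pcdhga11 (903 bp) and Pcdhga3 (811 bp) exceeded that of Pcdhgc4. Widths were not measured over all genes. Pcdhgc5 departed from the other C-type genes: it had no promoter peak in replicate 1 and a peak of score 52 in replicate 2, inside a hotspot of 92 bp with a −log10 q of 1.68. Its promoter also had the lowest CpG content of the group, an observed-to-expected ratio of 0.233, against 0.564 to 0.797 in the other 4.

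**Figure D2:**
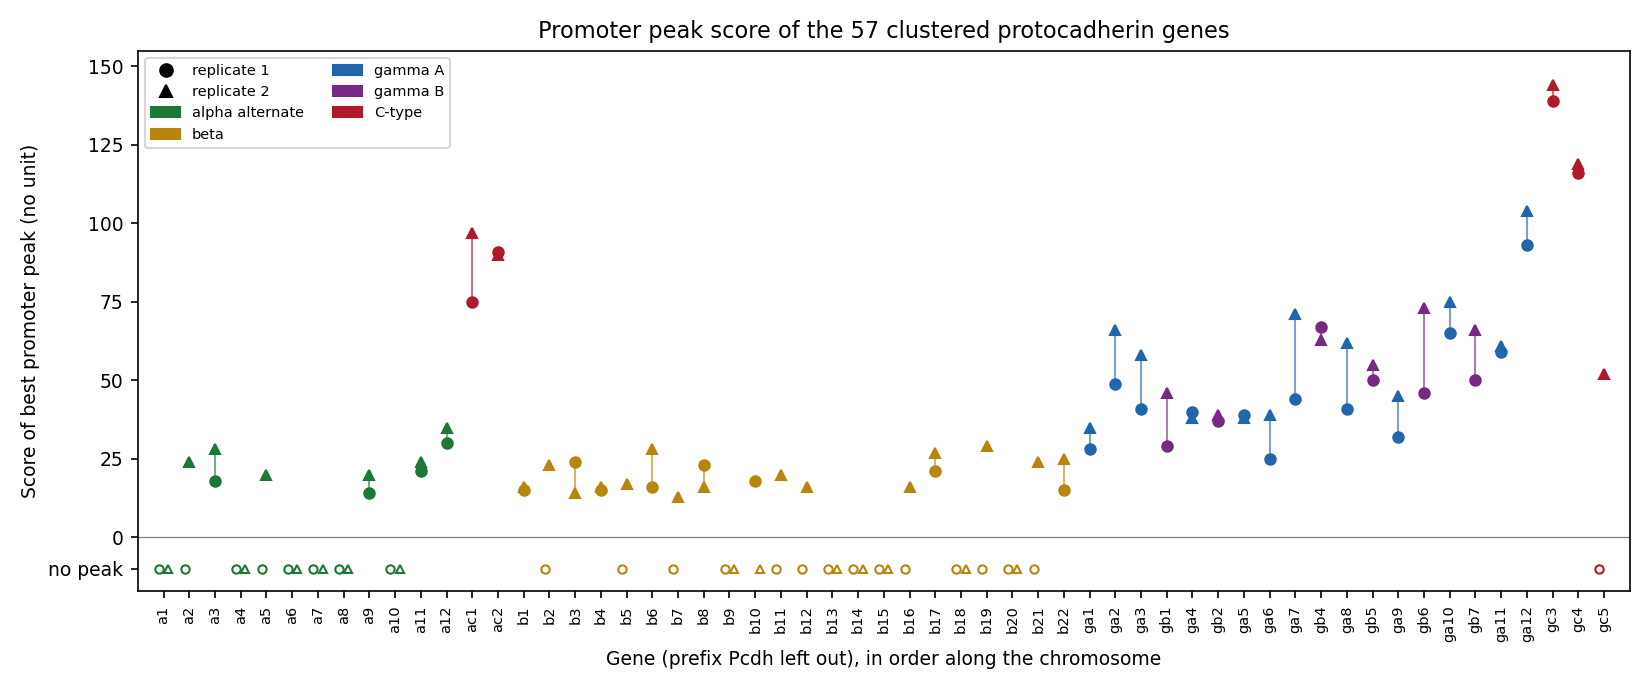
Score of the best promoter peak of each of the 57 genes, in order along the chromosome, for replicate 1 (circles) and replicate 2 (triangles); open symbols on the lowest row mark genes with no promoter peak in that replicate. Alternate alpha and beta genes stay at or below 35, gamma A and B genes range from 25 to 104, and Pcdhgc3 and Pcdhgc4 are the highest.

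Gamma A and gamma B genes alternate along the gamma cluster, and none of their promoters was without a peak. Among the gamma A genes the best promoter score of replicate 1 was lowest at Pcdhga6 (25) and highest at Pcdhga12 (93). In replicate 2 it was lowest at Pcdhga1 (35) and again highest at Pcdhga12 (104). The gamma B genes lay between 29 (Pcdhgb1) and 67 (Pcdhgb4) in replicate 1, and between 39 (Pcdhgb2) and 73 (Pcdhgb6) in replicate 2. Among all peaks these are middling ranks. Group medians were 41 and 59.5 for gamma A and 48 and 59 for gamma B, against medians of 45 and 50 over all peaks. Among gene promoters they are low: the median best promoter score of genes with a peak was 124 in replicate 1 and 130 in replicate 2.

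Scores varied along the gamma cluster, and no trend with position was tested. Pcdhga1, the gene at the 5′ end, scored 28 and 35, and its neighbours Pcdhga2 and Pcdhga3 scored 49 and 66, and 41 and 58. In the middle of the cluster Pcdhga4 had 40 and 38, Pcdhgb2 had 37 and 39, Pcdhga5 had 39 and 38, and Pcdhga9 had 32 and 45, but Pcdhga8 had 41 and 62 and Pcdhgb5 had 50 and 55. Nearer to the constant exons Pcdhga10 had 65 and 75, Pcdhgb7 had 50 and 66, and Pcdhga11 had 59 and 61, values that overlap those of the middle and of Pcdhga2. Pcdhga12, the last gene before the C-type exons, scored 93 and 104 and stood clear of every other alternate gene in both replicates. The order of the others differed between replicates: Pcdhga7 had 44 and 71 and Pcdhgb6 had 46 and 73, whereas Pcdhgb4, the best gamma B gene in replicate 1, had 67 and 63. Pcdhgb8, which the annotation classes as a polymorphic pseudogene and which is not a member, had promoter peaks of 35 and 55, within the range of the gamma B genes.

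Of the 12 alternate alpha genes, 4 were seen with a promoter peak by both replicates, 2 by replicate 2 alone and 6 by neither. Pcdha3 scored 18 in replicate 1 and 28 in replicate 2, Pcdha9 scored 14 and 20, Pcdha11 scored 21 and 24, and Pcdha12 scored 30 and 35. The highest of these, at Pcdha12, was at the 20.7 percentile of all peaks in replicate 1 and the 22.8 percentile in replicate 2. Pcdha2 (24) and Pcdha5 (20) had a peak in replicate 2 alone, and Pcdha1, Pcdha4, Pcdha6, Pcdha7, Pcdha8 and Pcdha10 had none in either. The peaks present lay in 2 places. At Pcdha2, Pcdha3, Pcdha9 and Pcdha11 the peak midpoint was between -90 and -22 bp from the TSS. At Pcdha5 and Pcdha12 it was at 470 and 561 bp, inside the variable exon, and Pcdha4 had a peak at 622 bp, just outside the window, with scores of 15 and 17 and hotspots of −log10 q 2.21 and 2.39.

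Those 3 exonic peaks coincide with a sequence feature of the alpha cluster, whose alternate exons are known to carry CTCF sites in addition to the sites at their promoters. The CTCF consensus was searched on both strands, from 500 bp before to 1000 bp after the TSS of every member. It was found in 7 of 12 alternate alpha genes (Pcdha1, Pcdha4, Pcdha5, Pcdha6, Pcdha7, Pcdha8 and Pcdha12), each time between 456 and 581 bp into the exon, and in none of the other 45 members. A peak covered the match at Pcdha4 (15 and 17), at Pcdha12 (30 and 35) and, in replicate 2, at Pcdha5 (20). The other 4 matches had no peak in either replicate. Over the genome, 5.57% of the peaks shared by both replicates hold such a match, which is a share of peaks and not of genes. The share of all genes with a match in the searched window was not measured. A match is a string of letters and no measurement of binding, and sites that depart from the consensus are not seen by this search.

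**Figure D3:**
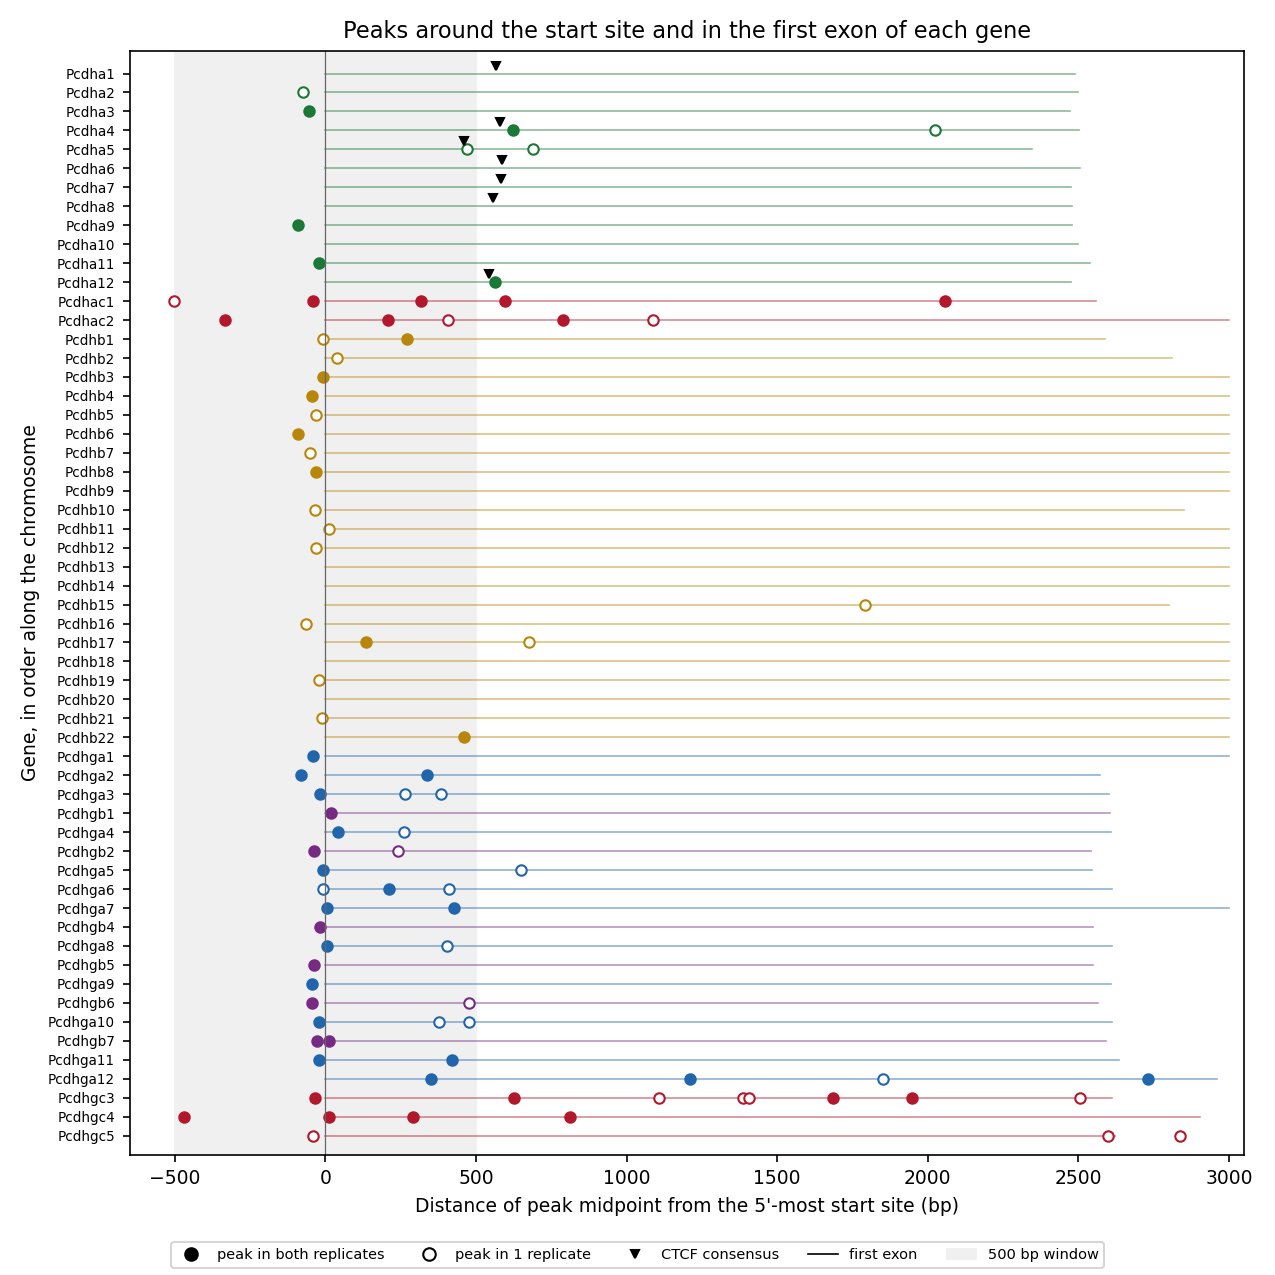
Midpoints of peaks relative to the 5′-most TSS of each member, in bp, with genes in order from top to bottom; filled circles are peaks found in both replicates, open circles peaks of 1 replicate, lines the first exon and triangles the CTCF consensus. Most promoter peaks sit close to the TSS. At Pcdha4, Pcdha5 and Pcdha12 a peak with its midpoint 470 to 622 bp into the exon covers a CTCF match, and that of Pcdha4 lies outside the promoter window.

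No beta promoter scored above 24 in replicate 1 or 29 in replicate 2. Pcdhb1, Pcdhb3, Pcdhb4, Pcdhb6, Pcdhb8, Pcdhb17 and Pcdhb22 had a promoter peak in both replicates. Their scores spanned 15 to 24 in replicate 1, and 14 to 28 in replicate 2. Pcdhb17 scored 21 and 27, Pcdhb6 scored 16 and 28, and Pcdhb22 scored 15 and 25. At other genes the replicates differed the opposite way, with 24 and 14 at Pcdhb3 and 23 and 16 at Pcdhb8. The discordant beta genes covered the same range, with Pcdhb10 at 18 in replicate 1, and in replicate 2 Pcdhb7 at 13, Pcdhb12 and Pcdhb16 at 16, Pcdhb5 at 17, Pcdhb11 at 20, Pcdhb2 at 23, Pcdhb21 at 24 and Pcdhb19 at 29. Pcdhb9, Pcdhb13, Pcdhb14, Pcdhb15, Pcdhb18 and Pcdhb20 had no promoter peak in either. The highest beta promoter peak, at Pcdhb19, was at the 11.4 percentile of its list, and replicates ranked the beta genes differently. All 7 shared peaks of the beta cluster were at promoters, and none lay elsewhere in its 260 kb.

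Promoter peaks of the family lay close to the TSS. The best peak lay a median of -22.5 bp from the nearest TSS in replicate 1 and -21.5 bp in replicate 2, and within 100 bp of it in 29 of 34 and 35 of 44 members with a peak. These distances were not measured over all genes, so closeness to the TSS is not shown to be particular to the family. Several gamma genes had a further peak inside the variable exon. More than 1 promoter peak in both replicates occurred at 8 of 57 members (14.0%), against 43.8% of all genes, and these were 4 gamma A genes, 1 gamma B gene and 3 C-type genes. Peaks at all TSSs of a gene were pooled in this count, and members and other genes were not matched for their number of TSSs. At Pcdhga12 further exonic peaks lay 1210 bp (41 and 63) and 2730 bp (85 and 101) past the TSS, and at Pcdhgc3 1946 bp past it (65 and 82).

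In strength the members ranked far below other genes. With a gene lacking a peak counted as 0, the median best promoter score was 18 in replicate 1 and 25 in replicate 2 over the 57 members, against 106 and 115 over all protein-coding genes. A score of at least 50 in both replicates was reached by 10 members (17.5%), against 66.3% of all genes. The 10 are 3 gamma A, 3 gamma B and 4 C-type genes, and no alternate alpha or beta gene is among them. A promoter hotspot at the ceiling in both replicates occurred at 11 members (19.3%), against 65.3% of all genes, again in the gamma A (5), gamma B (2) and C-type (4) groups. Where both replicates had a peak, the score was higher in replicate 2 at 27 members and lower at 6. The medians over all genes, 106 and 115, were also higher in replicate 2, and scores only rank peaks within a list. Weak peaks were often seen in 1 replicate in any gene: of members whose best score in replicate 2 was under 30, 10 of 20 also had a peak in replicate 1 (50%), against 86 of 234 of all such genes (36.8%).

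Median CpG content was lowest in the beta cluster, and the ranges of the other groups overlapped. Promoters rich in CpG dinucleotides are accessible in most tissues, and over all genes the share with a peak in both replicates was 8.96% in the lowest decile of the CpG observed-to-expected ratio and 99.4% in the highest decile. The ratio was taken over 500 bp to either side of the 5′-most TSS. Beta promoters were CpG-poor, with a median ratio of 0.378, against 0.558 at the middle of all genes. Alternate alpha promoters had a median of 0.684, gamma A promoters 0.588, gamma B promoters 0.650 and C-type promoters 0.670. Alternate alpha genes were therefore as CpG-rich as gamma genes, yet their peaks were not alike. Of the 9 alternate alpha genes in the seventh decile, 2 had a peak in both replicates, against 98.0% of all genes there, while the 5 gamma and C-type members of that decile all had one. Of the 10 beta genes in the fifth decile, 5 had a peak in both, against 87.0% of all genes there, and the 4 gamma genes of that decile all did.

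**Figure D4:**
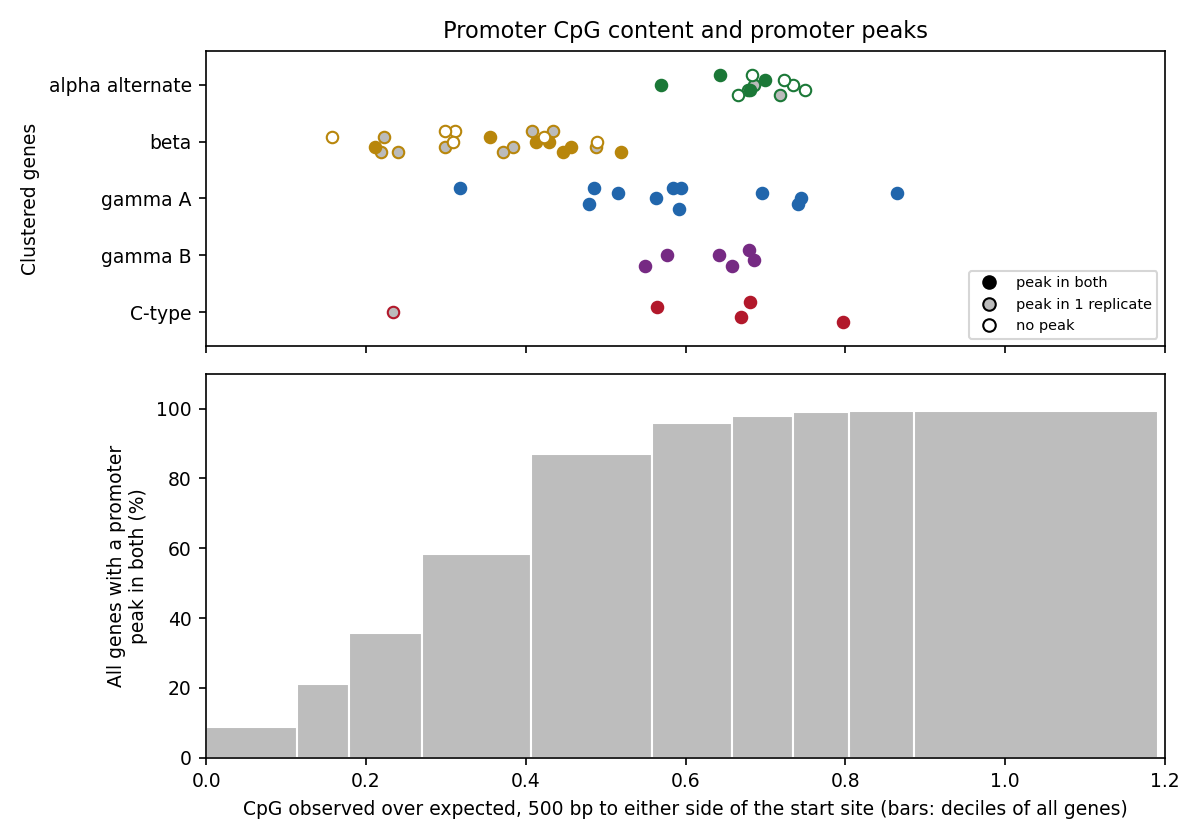
Top, CpG observed-to-expected ratio of each member's promoter by group, filled where a peak was present in both replicates, grey in 1 and open in neither; bottom, percentage of all protein-coding genes with a promoter peak in both replicates, by deciles of the same ratio. Most alternate alpha genes lie where nearly all genes of the genome have a peak and yet are open or grey.

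Members resemble each other in sequence, and short reads from identical stretches cannot be assigned to a single gene. The share of 31-base words around the TSS found only once in the genome had a median of 77.5% at alternate alpha, 100% at beta, 97.8% at gamma A, 80.1% at gamma B and 100% at C-type promoters. Among alternate alpha genes the median share was 76.8% in the 4 with a peak in both replicates and 78.5% in the 6 with none. Gamma B promoters, all with peaks, ranged from 70.5% to 100%, with Pcdhgb1 and Pcdhgb2 at 100%. Alternate alpha promoters ranged from 71.0% to 90.1%. The part of sequence identity in the scores was not tested.

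A conserved promoter element with the core letters CGCT is known from most alternate members. On the sense strand within 100 bases before the 5′-most TSS, CGCT was found in 45 of 57 members (78.9%), against 27.1% of all genes. Other start sites of a gene were not searched. By group it was present in 10 of 12 alternate alpha, 17 of 22 beta, 10 of 12 gamma A, 6 of 6 gamma B and 2 of 5 C-type genes. Pcdhac2, Pcdhb1, Pcdhgc4 and Pcdhgc5, in which the element is known to be missing, were among the 12 without it; the others were Pcdha5, Pcdha10, Pcdhb6, Pcdhb13, Pcdhb17, Pcdhb22, Pcdhga2 and Pcdhga12. On either strand from 250 bases before to 50 after the 5′-most TSS, the letters occurred in 55 of 57 members, against 67.5% of all genes. The CTCF consensus within 500 bases of the same TSS occurred in 1 member, Pcdha5, against 3.19% of all genes. Within the beta cluster, 3 of the 17 genes with CGCT in the 100 bases had a promoter peak in both replicates, and so did 4 of the 5 without it there (Pcdhb1, Pcdhb6, Pcdhb17 and Pcdhb22). At Pcdhb22 that peak lay 459 bp past the 5′-most TSS and -29 bp from its other TSS, which was not searched. The best peaks of Pcdhgc4 and Pcdhga12 also lay nearer to a TSS that was not searched. Among alternate alpha genes, 4 of the 10 with it and 0 of the 2 without it had a peak in both.

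Beyond the promoters, the locus was taken from the TSS of Pcdha1 to 250 kb past the last gamma exon, chr18:36930184-38091873 of mm10. It held 139 peaks in replicate 1 and 175 in replicate 2, of which 121 replicate 1 peaks overlapped one of replicate 2. That is 10.4 shared peaks per 100 kb, against 6.14 over the assembled genome and 6.34 on chromosome 18. From the first to the last member the density was 8.56 per 100 kb, and in the 250 kb beyond it was 17.2. Of the 121 shared peaks, 43 lay at member promoters, 7 elsewhere in variable exons and 15 in introns of members. Their density was lowest in the beta cluster (2.70 per 100 kb), was 5.41 over the alternate alpha exons and 22.5 over the gamma A and B exons, and reached 50.7 over the gamma constant region. Each of these stretches was counted with the sequence between its exons.

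**Figure D5:**
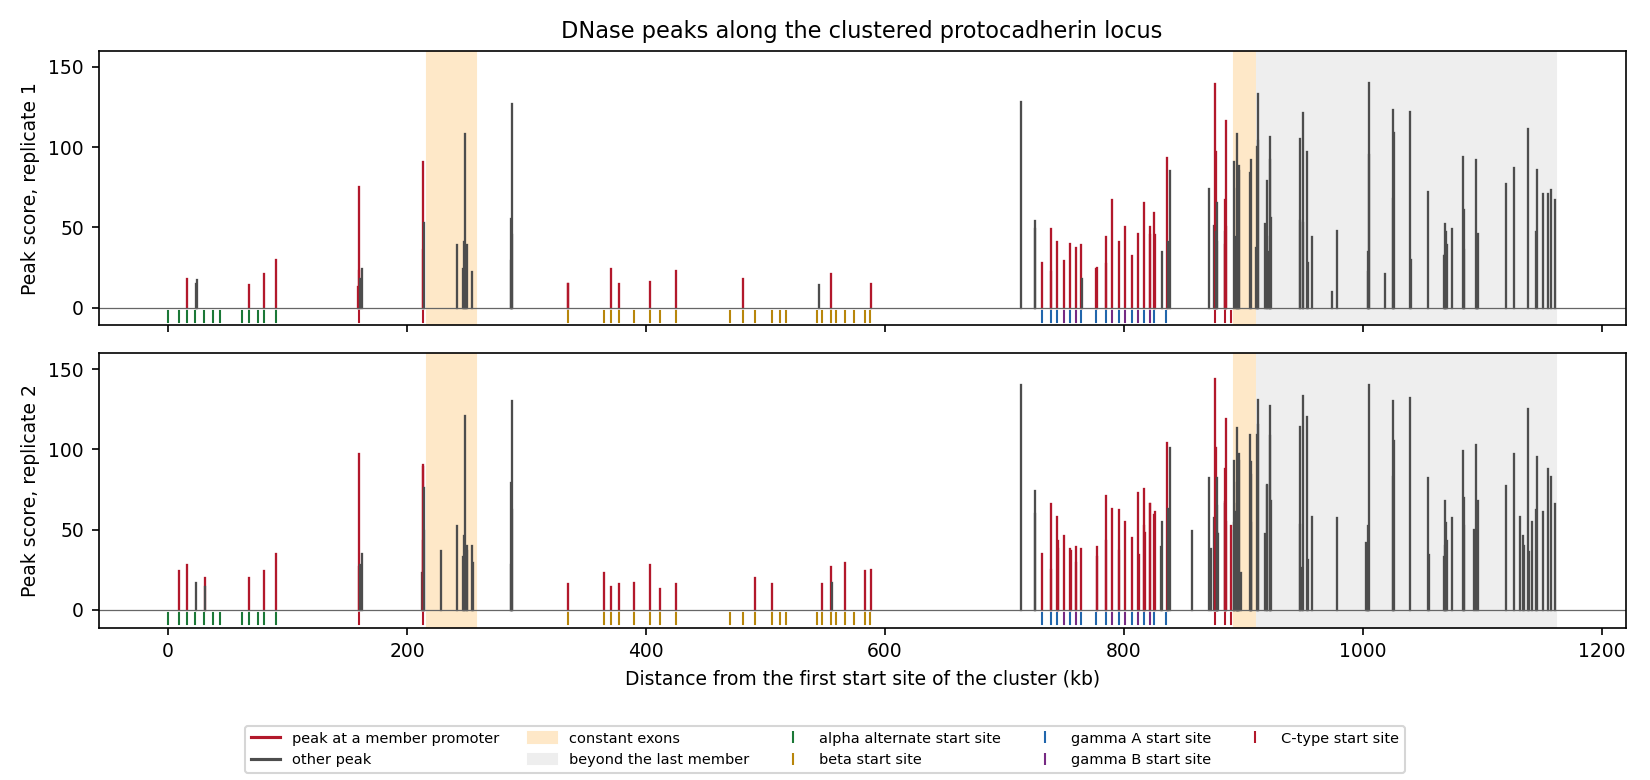
Score of every peak in replicate 1 (upper panel) and replicate 2 (lower panel) against distance from the first TSS of the family, in kb; red lines are peaks at member promoters, grey lines other peaks, and ticks under the axis are the TSSs. Tall grey lines stand in the alpha constant region, about 30 kb beyond it and throughout the gamma constant region and the 250 kb beyond.

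The best-ranked peaks around the alpha cluster were not at promoters. Between the last pair of alpha constant exons, where an enhancer of the alpha cluster is known to lie, a peak at chr18:37178416-37178565 scored 108 in replicate 1 and 121 in replicate 2, above every alpha promoter. Lower shared peaks lay on its 5′ side, with 41 and 46, 24 and 33, and 39 and 52. On its 3′ side they had 39 and 37, and 22 and 40. A second element stood in the gap between the alpha and beta clusters, on the side on which the other known alpha enhancer lies. There a hotspot common to both replicates spanned 1497 bp, chr18:37217088-37218584, at the ceiling in both. Its peaks scored 127 and 130 (30.7 kb past the last alpha exon), 45 and 62, and 55 and 79, and the last of these holds a CTCF consensus match. No identity of these intervals with the published enhancers was established from the files.

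Of the regions compared, the gamma constant region had the largest share of sequence in hotspots. It runs from the end of the Pcdhgc5 variable exon to the last constant exon, introns included. Its 19.7 kb held 10 shared peaks, and hotspots covered 21.1% of it in replicate 1 and 31.5% in replicate 2, against 0.589% and 1.07% of the beta cluster. Only 2 shared peaks of the whole locus were classed to constant exons, both of them here. A peak over the constant exon nearest to the variable exons scored 108 and 113, and one in the last constant exon scored 100 and 109. Immediately past the last gamma exon, peaks at 0.397 and 0.877 kb scored 133 and 131, and 104 and 115. This is the side on which the control region of the beta cluster is known to lie. Inside the next gene, Diaph1, an actin-nucleating formin, peaks followed at 10.4 kb (106 and 127), 35.6 kb (105 and 114), 38.4 kb (121 and 133) and 41.8 kb (97 and 120), and the last of these holds a CTCF consensus match. Each of these scores exceeded every beta promoter score in its replicate.

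Of the 10 other protein-coding genes in the locus, 7 had a promoter peak in both replicates (70%, against 70.3% of all genes) and 3 in neither. Taf7, a subunit of the general transcription factor TFIID that lies between the beta and gamma clusters, had a promoter peak of 128 and 140, while the adjacent carrier gene Slc25a2 had none. Diaph1 had 140 and 140, the histone deacetylase gene Hdac3 had 123 and 130, and Arap3 had 72 and 82. A pair of shared peaks in front of Pcdhga1, at -6163 and -5923 bp, scored 54 and 74, and 49 and 60, both above the 28 and 35 of the Pcdhga1 promoter itself. Of 3 long read-through gene models that span the clusters, Gm37013 and Gm37388 had no promoter peak and Gm42416 had the exonic peak of Pcdha4 (15 and 17).

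Related families outside the locus had more and better-ranked promoter peaks. All 12 unclustered protocadherins, which are adhesion proteins with a promoter each and no shared constant exons, had a promoter peak in both replicates, with median scores of 115 and 121.5. Pcdh1 had 92 and 103, Pcdh7 had 101 and 110, Pcdh8 had 137 and 133, and Pcdh9 had 135 and 140; the endothelial Pcdh12 was lowest with 42 and 47. Of 23 classical and related cadherins, 18 had a peak in both (78.3%), with Cdh5, Cdh19 and Cdh26 found in replicate 2 only and Cdh16 and Cdh17 in neither. Olfactory, vomeronasal and trace amine receptor genes, another large set of clustered genes of which a sensory neuron uses very few, had a peak in both replicates in 29 of 1479 cases (1.96%). Over all protein-coding genes the share was 70.3%. The clustered protocadherins (57.9%) lay between these families.

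Genes for the proteins that act on the clusters or bind their products were also examined. All 18 chromatin factors had a promoter peak in both replicates, against 70.3% of all genes. Among them were Ctcf with 137 and 140, and the cohesin subunit genes Rad21 with 130 and 132, Smc1a with 128 and 132 and Smc3 with 138 and 140. All 17 genes of partner proteins and proteases also had a peak in both replicates. Median CpG ratios were 0.905 in the chromatin factors and 0.774 in the partners and proteases. In the CpG deciles of those medians, 99.4% and 99.2% of all genes had a peak in both. Ptk2, the focal adhesion kinase bound by the shared cytoplasmic tails, had 136 and 136, its relative Ptk2b had 56 and 50, the receptor kinase Ret had 96 and 107, and the kinase Fyn had 148 and 146. Promoter accessibility of these genes says nothing of the amount or activity of their proteins.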

How the data were processed

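DNase-seq peak and hotspot lists of 2 replicates were used as deposited. Per the file headers and the text deposited with them, the authors made separate lists for the replicates from mm10 alignments, without pooling. The aligner, caller and filters were not given in the sources used here. The authors' peak score is a whole number from 1 to 150 and was used to rank peaks within a list. The deposited hotspot value is a −log10 of a q-value, by its file format; it stops at 100, the value of 33.3% of hotspots in replicate 1 and 34.1% in replicate 2. The depth is unknown, so no interval is given, and the number of libraries limits the precision. Whether the replicates are separate litters is not stated, and differences between them may be technical.

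Genes and TSSs came from GENCODE M21 and sequence from GRCm38, the build of the files. GENCODE gives the symbol Pcdha11 to a pair of gene IDs, and the one that starts at the RefSeq position of Pcdha10 is called Pcdha10 here. Members and gene lists were chosen with earlier results of these data known. All members, all other protein-coding genes of the locus and the lists were in scope, naming those list genes without a peak in both replicates and up to 4 others in list order. Shared peaks are replicate 1 peaks with at least 1 bp in common with a replicate 2 peak. Score percentiles count peaks scoring lower plus equal ones at 0.5 weight. Repeated sequence was measured as the percentage of 31-base words in the window that occur once in the genome. Promoter and overlap counting were tested on simulated peak lists with planted promoter peaks. Python 3.11.15, NumPy 2.4.6 and matplotlib 3.10.9 were used. No sequence of the locus is shown. Alternatives were other windows, start sites, midpoints, score and hotspot thresholds, overlaps, single replicates and a shorter locus.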

Additional observations from a re-analysis of the deposited data

How the results depend on the processing

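No paired analysis was possible because there is 1 group and no contrast between groups. The count of members with a promoter peak in both replicates (33) was 32 with a 250 bp window or by peak midpoint, 34 with 1000 bp or with hotspots, and 35 with 2500 bp, and ranged from 34 to 44 with either replicate left out. It fell to 12 with the better-scoring 50% of each list, where 66.9% of all genes still counted (70.3% as reported). The count with a promoter hotspot in both (34) was 11 at a −log10 q of at least 10 and 11 at the ceiling, and ranged from 35 to 45 with either replicate left out. Shared peaks in the locus (121) were 120 with a 50% overlap, 72 with the better-scoring 50% and 78 up to the end of the last member, since these settings use fewer peaks or less sequence, and ranged from 139 to 175 with either replicate left out. All genes with a promoter peak in both (15296) ranged from 15486 to 15687 with either replicate left out, and 75.3% of genes had one without the chemoreceptor genes. For all genes, the settings of 5′-most start site, peak midpoint, better-scoring 50% and hotspots were chosen after seeing the data. Among group counts, 4 of 45 values moved by more than 1.5 times: alternate alpha, beta and gamma A with the better-scoring 50% (0, 0 and 4), and beta in replicate 2 alone (15). The depth is unknown, and an alpha or beta promoter without a peak in a list is not shown to be closed.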
